A study of Mus musculus with 14 samples.

Results

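The 9 genes followed here mark hematopoietic stem cells and early progenitors and were measured across mouse fetal liver, bone marrow and spleen: the surface receptors Kit, Flt3, Cd34 and Procr, and the transcription factors Meis1, Mecom, Hoxa9, Hlf and Gata2. They were chosen by symbol from a list, and all 9 of 9 had probes, among 32589 features in the purchased wild-type sections and 19465 in the sections of the C1qa cross. Each of the 14 samples was 1 section on a Visium array, where a spot covers several cells, and expression was measured by hybridized probes and unique molecular identifiers (UMIs). The purchased animals were C57BL/6 wild type and gave 1 section each of E13.5 fetal liver, E14.5 fetal liver, P8 leg bone, 89-week leg bone cut without removing mineral, leg bone of an adult of 6 months held for 5 days in 0.5 M EDTA, and adult spleen. The cross of C1qa heterozygotes gave E14.5 fetal livers of wild-type (n = 2) and C1qa knockout (n = 2) embryos and spleens of wild-type (n = 2) and C1qa knockout (n = 2) mice at 3 months. C1qa encodes a chain of complement C1q, which macrophages of these tissues make, and the deletion is carried by every cell of the knockout animals. The numbers 2 and 4 of the fetal livers name the litters of 2 pregnant heterozygotes, so that each litter gave 1 wild-type and 1 knockout liver.

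Blood formation moves during development from the fetal liver to the bone marrow, and in the mouse the spleen keeps some of it in adult life. Stem cells and early progenitors carry Kit, the receptor of stem cell factor, and multipotent and lymphoid progenitors carry Flt3, the receptor of FLT3 ligand. Meis1, Mecom, Hoxa9 and Hlf encode nuclear regulators of self-renewal, and Gata2 encodes a GATA factor of stem cells, early progenitors and mast cells. None of these genes belongs to blood cells alone: Cd34, Procr and Mecom are also known in endothelium, Meis1, Mecom and Hoxa9 in embryonic mesenchyme, Kit in mast cells and melanocytes, and Flt3 in dendritic cells. Stem cells are rare in all 3 tissues, and in a section, where RNA of many cells is pooled, fewer cells of a type and less RNA per cell cannot be told apart.

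Levels are given as CPM (UMIs of a gene per 1000000 UMIs of the section), summed over the spots under tissue that held at least 1000 genes. The passing spots numbered 491 to 2320 in 13 sections, with 4225805 to 56182915 UMIs, of which 746 to 12801 belonged to the 9 genes. The EDTA-treated marrow had 15 passing spots and 9 UMIs of these genes, so its values for single genes are given only as counts. The deleted gene fitted the labels: C1qa had 1939 and 1023 UMIs in the wild-type fetal livers and 4343 and 1135 in the wild-type spleens, against 1, 1, 2 and 1 in the 4 knockout sections. Not all sections were of 1 tissue. Liver spots, defined by 10 hepatocyte genes that together gave 0.5% of UMIs or more, made up 94.4% and 96.6% of wild-type and knockout liver 2, but 29.8% of wild-type liver 4 and 62.3% of knockout liver 4. The rest of these 2 sections lay over other embryonic tissue, and levels in liver spots alone are therefore given beside those of the sections. In the P8 leg bone, 29.2% of spots reached the same share from 10 neutrophil genes and are called marrow spots. Pancreas genes summed to 65.8 and 985 CPM in the wild-type spleens and to 3818 and 26221 CPM in the knockout spleens.

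In the contrasts between liver spots and the tissue around them, described below, Meis1 and Mecom were lower in liver spots, as were Cd34 and Procr. Flt3 and Hlf were higher on the scale of the fit but did not pass with library totals. The promoters of Meis1, Mecom, Flt3 and Hlf, 4 of these members, are shown first. They are the 250 bases before the annotated start in RefSeq (GRCm38.p6, on the minus strand in all 4 cases), written 5′ to 3′ along the gene, for Meis1 at chr11:19018970-19019219, Mecom at chr3:30509760-30510009 (the farther upstream of 2 annotated starts), Flt3 at chr5:147400490-147400739 and Hlf at chr11:90390918-90391167. Capitals mark matches, on either strand, to 6 strings searched: AGATAA, read by GATA factors, its second form TGATAA, the ETS string CCGGAAGT, the MEIS string TGACAG, the C/EBP string TTGCGCAA and the CAAT box CCAAT.
Meis1: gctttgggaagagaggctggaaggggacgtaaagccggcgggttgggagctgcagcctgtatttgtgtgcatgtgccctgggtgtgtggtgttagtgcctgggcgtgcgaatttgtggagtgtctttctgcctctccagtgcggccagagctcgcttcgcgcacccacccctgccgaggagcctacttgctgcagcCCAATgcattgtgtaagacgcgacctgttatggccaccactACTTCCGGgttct
Mecom: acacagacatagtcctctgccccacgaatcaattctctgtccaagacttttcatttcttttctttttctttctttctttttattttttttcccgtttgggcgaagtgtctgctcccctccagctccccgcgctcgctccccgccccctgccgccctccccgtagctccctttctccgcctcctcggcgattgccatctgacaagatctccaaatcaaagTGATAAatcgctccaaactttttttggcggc
Flt3: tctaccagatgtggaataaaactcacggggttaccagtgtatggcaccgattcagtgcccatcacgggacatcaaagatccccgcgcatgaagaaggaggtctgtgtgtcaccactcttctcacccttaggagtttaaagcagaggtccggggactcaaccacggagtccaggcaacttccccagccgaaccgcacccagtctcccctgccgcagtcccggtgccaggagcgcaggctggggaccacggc
Hlf: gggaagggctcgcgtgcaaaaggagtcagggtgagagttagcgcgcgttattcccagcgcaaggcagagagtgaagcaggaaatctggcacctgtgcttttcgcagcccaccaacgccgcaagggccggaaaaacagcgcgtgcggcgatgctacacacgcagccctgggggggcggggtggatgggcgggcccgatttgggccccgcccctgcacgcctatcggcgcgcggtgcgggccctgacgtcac

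The Meis1 window held CCGGAAGT on the minus strand of the gene, from base -13 to base -6 before the start, and CCAAT on its plus strand from base -54 to base -50. The Mecom window held TGATAA from base -31 to base -26. None of the 6 strings stood in the windows of Flt3 and Hlf, which says only that these letters are absent there. Among 32851 mouse promoter windows of the same length, 2.877% held CCGGAAGT, 7.942% TGATAA, 9.988% AGATAA, 15.86% TGACAG, 0.1644% TTGCGCAA and 33.85% CCAAT. Of the matches above, CCAAT is thus common, and TGATAA and CCGGAAGT are less so. The windows were 59.6% GC for Meis1, 50.8% for Mecom, 59.2% for Flt3 and 67.2% for Hlf, against a median of 52.4% over all windows. The window at the other Mecom start held TGACAG and CCAAT, of the 2 Gata2 windows the one at chr6:88198414-88198663 held CCAAT at 2 places and the other none of the strings, and those of Kit, Cd34, Procr and Hoxa9 held none of the strings.

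Kit, the stem cell factor receptor, had the most even level of the 9 genes. It stood at 48.9 CPM in E13.5 and 51.3 in E14.5 purchased fetal liver, 29.5 in P8 leg bone, 56.9 in 89-week marrow and 57.0 in purchased spleen. In the cross, Kit measured 56.0 and 59.9 CPM in the fetal livers of wild-type embryos against 56.5 and 88.1 CPM in knockout fetal livers, and at 41.0 and 62.2 CPM in wild-type spleens against 56.9 and 50.1 CPM in knockout spleens. The highest of 13 sections was 2.98 times the lowest, and fetal livers and spleens overlapped. P8 leg bone, the lowest, held 43.5 CPM in its marrow spots and 18.8 CPM in its other spots.

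Flt3, the FLT3 ligand receptor, separated the tissues. The 6 fetal livers held 1.23 to 3.27 CPM with a median of 1.48, the P8 and 89-week leg bones 1.91 and 1.54 CPM, and the 5 spleens 11.4 to 21.6 CPM with a median of 15.1. The ranges of fetal livers and spleens did not overlap, which held for 22.8% of 18602 genes with a mean of at least 1 CPM. These counts were small in the livers, with 16 to 69 UMIs a section.

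Procr, the endothelial protein C receptor, which also marks long-term stem cells, showed the same order. It was at 1.12 to 8.56 CPM in the 6 fetal livers, with a median of 3.67, at 6.78 and 1.90 CPM in the P8 and 89-week leg bones, and at 15.4 to 25.6 CPM in the 5 spleens, with a median of 20.4. Again the lowest spleen was above the highest fetal liver.

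Cd34, a sialomucin of progenitors and of endothelium, was highest in P8 leg bone at 102.6 CPM. The other single sections held 31.4 CPM (E13.5 liver), 18.4 (E14.5 liver), 24.2 (89-week marrow) and 18.4 (spleen). In the cross, wild-type livers 2 and 4 held 22.7 and 59.9 CPM, knockout livers 2 and 4 held 25.8 and 42.3 CPM, and the 4 spleens 17.0 to 22.2 CPM. The 2 high livers are the 2 sections with much tissue outside the liver, and in liver spots alone the values were 18.5, 42.3, 21.2 and 32.5 CPM in the same order.

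**Figure D1:**
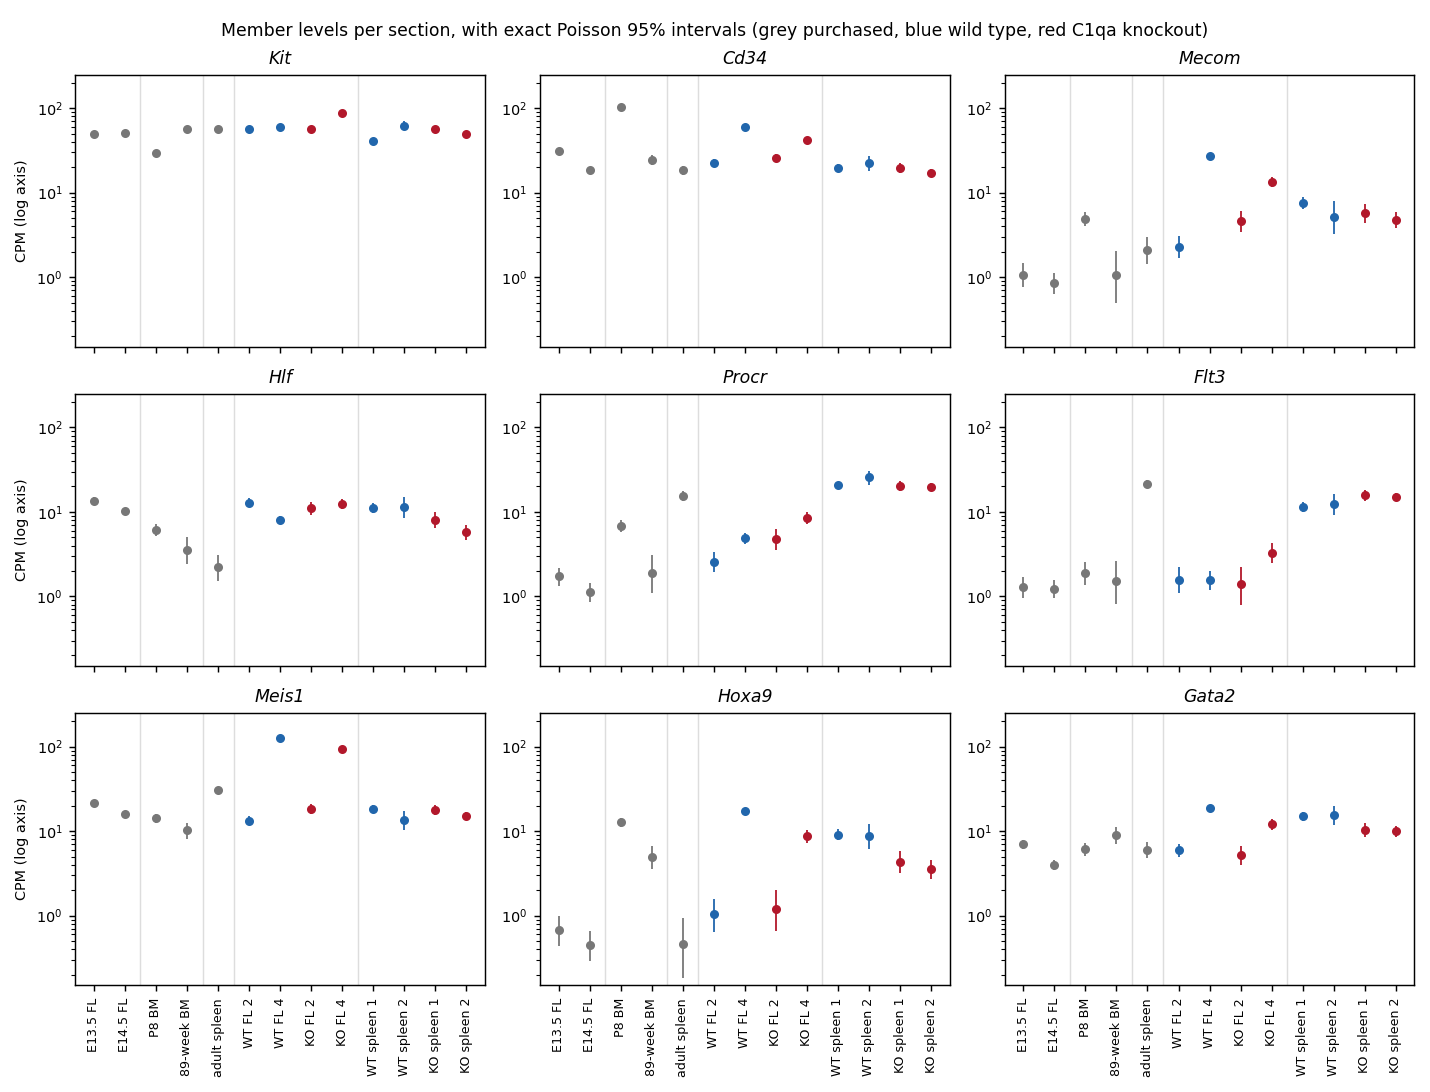
Level of each of the 9 genes in CPM (log axis) in 13 sections with at least 100 passing spots, grouped by tissue, with exact Poisson 95% intervals that cover counting error only. Flt3 and Procr are higher in all 5 spleens than in all 6 fetal livers. Among the fetal livers, Meis1, Mecom and Hoxa9 are highest in livers 4 of both genotypes.

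Of the 9 genes, Hoxa9 and Mecom varied most between sections, the highest of 13 being 39.0 and 31.5 times the lowest. Among the transcription factor genes Gata2 varied least, by 4.71 times. Meis1, a TALE homeobox gene, stood at 21.6 and 15.9 CPM in the purchased fetal livers, 14.2 in P8 leg bone, 10.2 in 89-week marrow and 30.8 in purchased spleen. In the cross, Meis1 stood at 13.4 CPM in wild-type liver 2 and 18.4 CPM in knockout liver 2, but at 126 CPM in wild-type liver 4 and 93.7 CPM in knockout liver 4, and the 4 spleens held 13.5 to 18.3 CPM. In liver spots alone the 2 high values were 25.8 and 30.0 CPM.

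Mecom, which encodes the zinc finger factor EVI1 and its longer form, was scarce, at 0.85 to 2.1 CPM in the purchased livers, 89-week marrow and spleen and 4.9 CPM in P8 leg bone. In the cross it was at 2.3 CPM in wild-type liver 2, 4.6 in knockout liver 2, 26.9 in wild-type liver 4, 13.3 in knockout liver 4, and 4.8 to 7.5 CPM in the spleens. Among fetal livers Hoxa9 had the same 2 sections on top, at 17.4 CPM in wild-type liver 4 and 8.68 CPM in knockout liver 4. The livers of litter 2 held 1.04 and 1.21 CPM of Hoxa9. In liver spots alone these values were 3.33, 5.19, 0.97 and 1.25 CPM. It was at 0.68 and 0.44 CPM in the purchased livers, 12.8 in P8 leg bone, 4.98 in 89-week marrow and 0.46 in purchased spleen (7 UMIs), while the spleens of the cross held 9.08 and 8.76 CPM in the wild type and 4.34 and 3.56 CPM in the knockout.

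Hlf, a PAR bZIP gene of long-term stem cells that hepatocytes also express, kept within 8.0 to 13.6 CPM over the 6 fetal livers. It was at 6.1 CPM in P8 leg bone, 3.6 in 89-week marrow and 2.2 in purchased spleen, and at 11.1 and 11.4 CPM in wild-type spleens against 8.1 and 5.8 CPM in knockout spleens. Gata2 lay between 4.0 and 18.7 CPM, with wild-type liver 4 highest, wild-type spleens at 15.0 and 15.4 CPM and knockout spleens at 10.4 and 9.9 CPM. In wild-type liver 4 it was at 9.81 CPM in liver spots and 25.1 CPM in other spots, and in liver spots alone knockout liver 4 was the highest of the livers at 13.2 CPM. The EDTA-treated marrow had 3 UMIs of Meis1, 2 each of Kit and Cd34, 1 each of Hlf and Hoxa9, and 0 of Mecom, Procr, Flt3 and Gata2. With 3 counts as the limit that a count of 0 allows in 37167 UMIs, these 4 genes could have stood at up to 80.7 CPM there.

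Spleen was compared with fetal liver over the 8 sections of the cross, with genotype in the model, by edgeR's quasi-likelihood test with Benjamini-Hochberg adjustment over all genes. Tissue and age, E14.5 and 3 months, cannot be told apart in this comparison. Of the 9 genes, 7 passed, 2 higher and 5 lower in spleen, where 46.8% of 19087 genes passed, 21.2% higher and 25.6% lower. Flt3 was 4.41-fold higher in spleen (log2 fold change 2.14 ± 0.31 SE, adjusted p = 0.000503) and Procr 2.74-fold higher (1.46 ± 0.26, adjusted p = 0.00154). These 2 genes passed in 18 of 18 alternative settings. Meis1 was 5.18-fold lower (-2.37 ± 0.51, adjusted p = 0.00453), Cd34 2.96-fold lower (-1.57 ± 0.24, adjusted p = 0.000636), Kit 2.04-fold lower (-1.03 ± 0.25, adjusted p = 0.00774), Hlf 2.21-fold lower (-1.14 ± 0.37, adjusted p = 0.0284) and Mecom 2.74-fold lower (-1.46 ± 0.52, adjusted p = 0.0414). Hoxa9 (-0.60, adjusted p = 0.417) and Gata2 (-0.31, adjusted p = 0.354) did not pass. Of the 18 alternatives Cd34 and Meis1 passed in 17 each, Kit in 15, Hlf in 9 and Mecom in 7. Kit was lost without wild-type spleen 1 (adjusted p = 0.0579), Hlf without any 1 of the spleens or either liver of litter 2 (0.0673 to 0.102), and Mecom without any 1 of the spleens or either liver of litter 4 (0.0664 to 0.207).

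Where the fetal liver was restricted to its liver spots, Flt3 (log2 fold change 1.87), Procr (1.90), Kit (-1.09), Cd34 (-1.26) and Hlf (-1.33) kept their direction and passed. Meis1 shrank to -0.96 (adjusted p = 0.00635) and Mecom to -0.27 (adjusted p = 0.445). Gata2 was at -0.06 (adjusted p = 0.844) and Hoxa9 at 0.56 (adjusted p = 0.252), and neither passed in any of its 18 alternatives. With the litter of the fetal livers as a replicate block the same 7 genes passed, Mecom at -1.22 (adjusted p = 0.00398), and with the block and liver spots alone Mecom was at -0.23 (adjusted p = 0.489).

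The scale matters here, since CPM of a liver section is set in part by hemoglobin and hepatocyte RNA. The fit scales sections by the trimmed mean of M-values (TMM), under which the median gene differed between tissues by 0.10 on the log2 scale, while with library totals it differed by 0.73. With library totals 67.1% of calls over all genes were higher in spleen, with TMM 45.3%. Relative to the median gene, the differences were alike under both: Flt3 2.04 and 2.08, Procr 1.35 and 1.37, Kit -1.13 and -1.03, Cd34 -1.67 and -1.66, Hlf -1.25 and -1.06. With library totals 3 members passed, Flt3 and Procr higher and Meis1 lower, and Kit was at -0.30 (adjusted p = 0.347) and Cd34 at -0.93 (adjusted p = 0.0584).

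**Figure D2:**
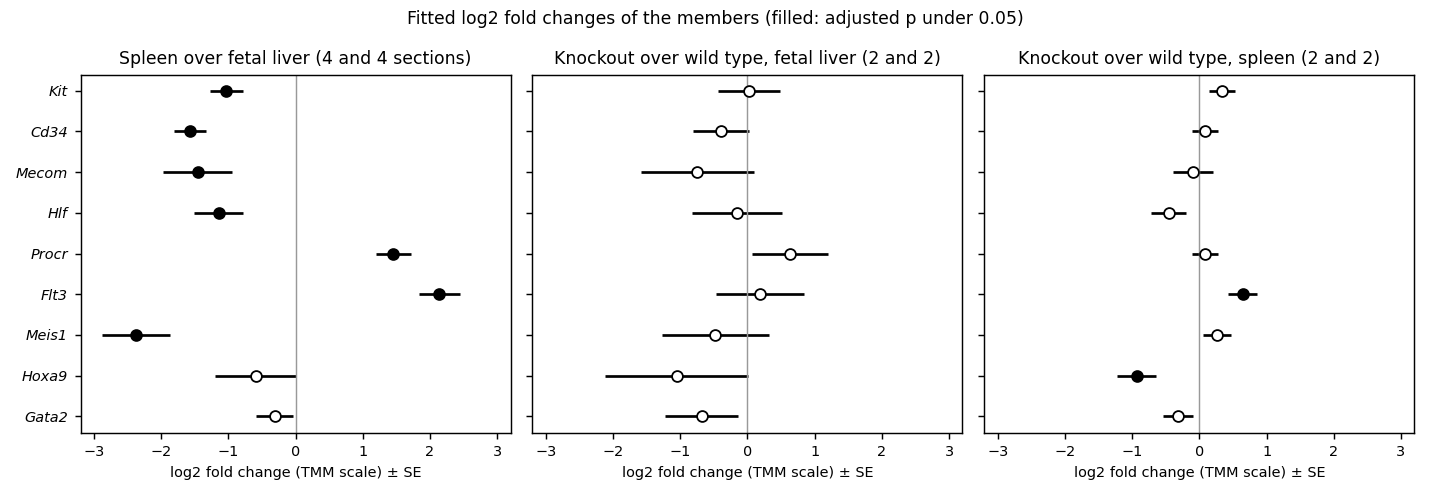
Log2 fold changes of the 9 genes from edgeR with their standard errors in the comparisons of genotype and of tissue, in sections of the C1qa cross; filled points passed an adjusted p of 0.05. In the tissue comparison Flt3 (2.14) and Procr (1.46) lie to the right and Meis1 (-2.37) farthest to the left.

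Within the fetal liver sections, liver spots were compared with the other spots of the same section, with the section as a block. Of 9 members, 6 passed, 2 higher and 4 lower in liver spots, where 30.8% of 19142 genes passed, 16.8% higher and 14.0% lower. Meis1 was at 11.4 CPM in liver and 66.7 CPM in other spots of wild-type liver 2, at 25.8 and 198 CPM in wild-type liver 4, at 12.1 and 232 CPM in knockout liver 2, and at 30.0 and 250 CPM in knockout liver 4. It was lower in liver spots in 4 of 4 sections, 5.70-fold in the fit (-2.51 ± 0.24, adjusted p = 0.000266). Mecom was lower in 4 of 4 sections, from 2.1 to 7.8 CPM in liver and from 6.9 to 57.3 CPM in other spots (4.16-fold, -2.06 ± 0.39, adjusted p = 0.00512). Both passed in 9 of 9 alternative settings.

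Cd34 followed, with 18.5 against 136 CPM, 42.3 against 72.5, 21.2 against 181 and 32.5 against 66.2 CPM in wild-type livers 2 and 4 and knockout livers 2 and 4 (2.32-fold lower in liver spots, -1.21 ± 0.34, adjusted p = 0.0283). Without knockout liver 2 it was at -0.96 (adjusted p = 0.151). Procr was at 2.4 to 5.6 CPM in liver and 6.6 to 42.2 CPM in other spots (-1.28 ± 0.40, adjusted p = 0.0402) and passed in 5 of 9 alternatives, not with a liver threshold of 1% (adjusted p = 0.0545) nor without wild-type liver 4 (0.0892), knockout liver 2 (0.125) or knockout liver 4 (0.0886). For Cd34, Procr and Meis1 the highest of the 4 values in liver spots was below the lowest of the 4 outside the liver, and for Mecom the ranges overlapped. Over all genes with a mean of at least 1 CPM, 27.1% did not overlap between these regions.

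Flt3 and Hlf went the other way on the scale of the fit. Flt3 was 3.02-fold higher in liver spots (1.59 ± 0.39, adjusted p = 0.0157), at 1.6, 2.4, 1.4 and 3.6 CPM in liver spots and 0.0, 1.0, 0.0 and 2.5 CPM in other spots of wild-type livers 2 and 4 and knockout livers 2 and 4. The 2 zeros are counts of 0, which with 3 counts as the limit allow up to 4.17 and 9.04 CPM, so the size of the fitted fold is uncertain. Hlf was 2.32-fold higher (1.21 ± 0.32, adjusted p = 0.0223), but its CPM was higher in liver spots only in wild-type liver 4 (12.1 against 5.1) and knockout liver 4 (14.6 against 7.4), and lower in wild-type liver 2 (12.8 against 13.9) and knockout liver 2 (10.9 against 15.1). With library totals, under which 19.9% of all calls were higher in liver spots against 54.5% with TMM, Flt3 was at 1.08 (adjusted p = 0.0543) and Hlf at 0.55 (adjusted p = 0.333). Without wild-type liver 4, Flt3 was at 1.41 (adjusted p = 0.245) and Hlf at 0.92 (adjusted p = 0.189), and without knockout liver 4 their adjusted p was 0.0538 and 0.0739. Relative to the median gene both were higher under both scales, Flt3 by 1.40 and 1.46 and Hlf by 1.02 and 0.94.

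Kit (0.54, adjusted p = 0.0840), Hoxa9 (-1.44, adjusted p = 0.0879) and Gata2 (-0.62, adjusted p = 0.407) did not pass, although Hoxa9 did without wild-type liver 2 (-1.88, adjusted p = 0.000109) and with library totals (adjusted p = 0.0186). Kit was at 56.3 CPM in liver against 47.2 CPM in other spots and 68.3 against 53.8 CPM in the wild-type sections, and at 55.1 against 102.5 CPM and 82.7 against 101.6 CPM in the knockout sections. In wild-type liver 2 the other spots held 34 Kit UMIs, with an interval of 32.7 to 66.0 CPM that includes the value in liver. In knockout liver 4 the median over single spots was higher in liver (77.3 CPM) than in other spots (58.9 CPM). These other spots were shallower (median 19109.5 against 30826 UMIs), and 36.5% of them had no Kit UMI, against 13.1% in liver. Their 90th percentile was higher than that of liver spots (202 against 151 CPM). The spots outside the liver were rich in mesenchymal markers, 10 genes that summed to 8380 to 22028 CPM there and to 732 to 1811 CPM in liver spots, and in neural markers, which summed to 315 to 1330 CPM there and to 32.1 to 73.0 CPM in liver spots. The part of these tissues in the levels outside the liver was not tested.

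**Figure D3:**
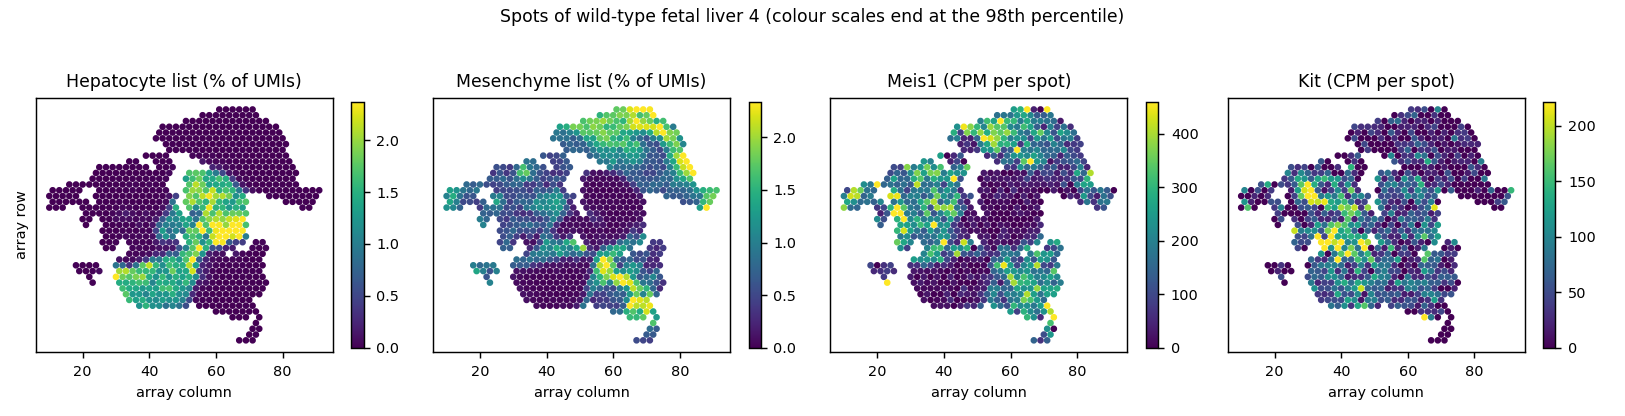
Spots of wild-type fetal liver 4, placed by their column and row on the array and coloured, from left to right, by the percent of a spot's UMIs in the hepatocyte list, the percent in the mesenchyme list, Meis1 in CPM and Kit in CPM; each colour scale ends at the 98th percentile. Spots with low hepatocyte genes hold high Meis1 (median 188 CPM a spot, against 19.4 in liver spots), and Kit is seen both inside and outside the liver, with its brightest patch outside.

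Single spots of wild-type liver 4 showed how the members were laid out. Kit had a median of 61.6 CPM in its 240 liver spots, with the 10th and 90th percentiles at 15.5 and 121 CPM, and 6.67% of these spots had no Kit UMI. In its 566 other spots the median was 29.8 CPM and 32.2% of spots had none. Meis1 had a median of 19.4 CPM in liver and 188 CPM in other spots. Spots of 1 section are not replicates, so no test was made between them.

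**Figure D4:**
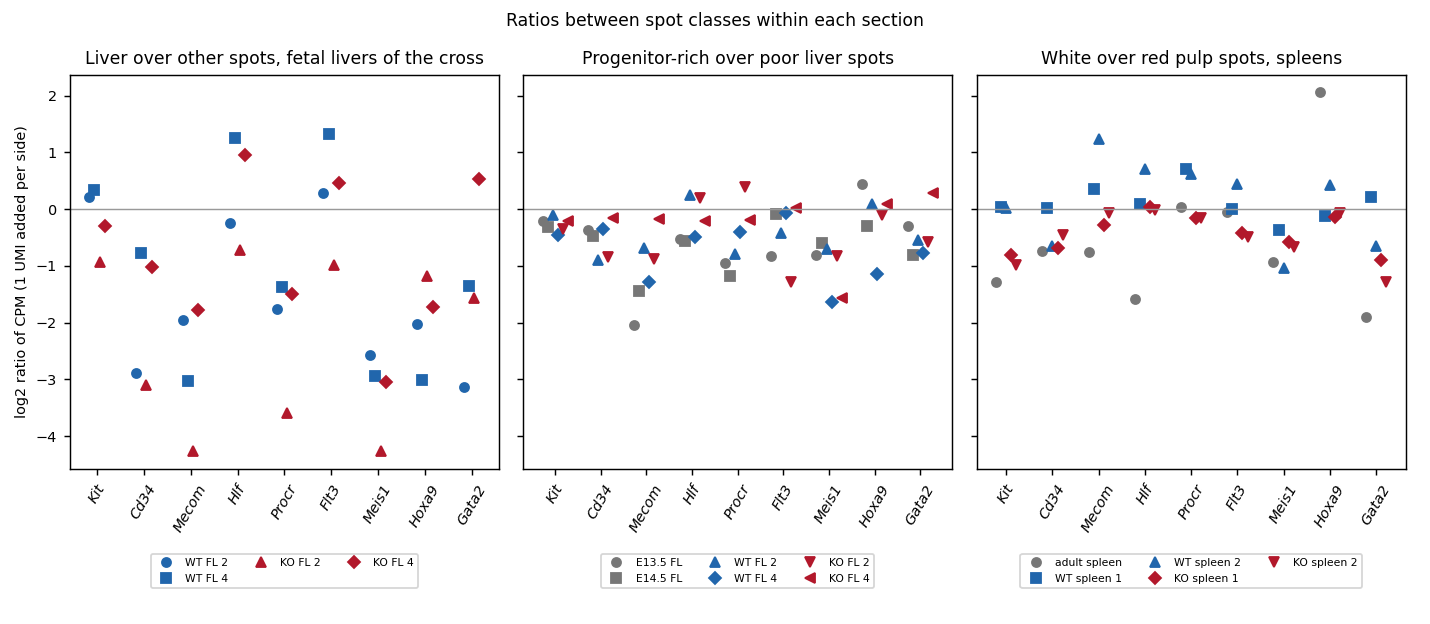
Log2 ratio of CPM, with 1 UMI added on each side, between regions of the same section for each of the 9 genes, 1 point a section: liver over other spots in the 4 fetal livers of the cross, progenitor-rich over progenitor-poor liver spots in 6 fetal livers, and white over red pulp-rich spots in 5 spleens (grey purchased, blue wild type, red C1qa knockout). In the first panel Meis1 lies between -4.27 and -2.57 in all 4 sections.

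Within liver spots, 2 further divisions asked with which cells the members share spots. When liver spots were ranked by the summed CPM of 20 erythroid progenitor genes of the study, among them Klf1 and Car2, and the upper tertile was compared with the lower, Meis1 was lower in the progenitor-rich spots in 4 of 4 sections of the cross (-1.09 ± 0.17, adjusted p = 0.00798), where 7.50% of 17417 genes passed, 4.94% lower. Of these calls 34.1% were higher with TMM and 12.8% with library totals. It was lower also in the 2 purchased livers, by -0.80 at E13.5 and -0.61 at E14.5. No other member passed: Mecom was at -0.62 (adjusted p = 0.179), Cd34 at -0.39 (adjusted p = 0.169) and Kit at -0.13 (adjusted p = 0.409). Without knockout liver 4 the Meis1 difference was -0.89 with an adjusted p of 0.179, and no gene passed. Progenitor-poor liver spots held more of the mesenchymal list in all 4 sections, from 1196 to 3834 CPM against 490 to 691 CPM in progenitor-rich spots, and the part of that in the Meis1 result was not tested.

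When the same spots were ranked by 10 endothelial genes, among them Pecam1 and Cdh5, none of the 9 members passed, and 0% of 17802 genes did by edgeR, although 1774 had p below 0.05 before adjustment, and DESeq2 called 3. Meis1 had the smallest p, with 0.47 ± 0.13 higher in endothelial-rich spots (adjusted p = 0.320), and was higher in 4 of 4 sections by 0.24 to 0.86 in the log2 ratio of CPM. In the spleens, where this division was described and not tested, Cd34 was higher in the endothelial-rich tertile in 5 of 5 sections, by log2 ratios of 0.27, 0.33, 0.76, 0.47 and 0.87, and in P8 leg bone by 0.93. Stab2 is in both the endothelial list and the red pulp list used below, and Cd34 was also lower in white pulp-rich spots. The part of the spleen zones in these Cd34 ratios was not tested. Procr, despite its name, had ratios between -0.26 and 0.22 in the 5 spleens and 2.14 in P8 leg bone.

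The P8 leg bone, 1 section with no replicate check, held 317 marrow and 768 other spots. Kit was at 43.5 CPM in marrow against 18.8 CPM outside, Flt3 at 3.6 against 0.6 CPM and Gata2 at 7.7 against 4.9 CPM. Cd34 was at 46.8 CPM in marrow against 145.4 CPM outside, Mecom at 2.0 against 7.1, Hoxa9 at 6.0 against 18.0, Procr at 3.9 against 9.0 and Hlf at 4.0 against 7.8, and Meis1 was at 12.8 and 15.2 CPM. The high Cd34 of this section therefore lay outside the marrow spots, where the mesenchymal list summed to 141481 CPM against 80931 CPM in marrow spots.

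The C1qa genotype was compared in fetal liver with 2 sections a side. None of the 9 members passed, and 0% of 18986 genes did by edgeR. Before adjustment 138 genes had p below 0.05, and DESeq2 called 15. The deleted gene itself did not pass, at -10.25 ± 1.35 with an adjusted p that rounds to 1, so this design could not call even a loss of that size, and the absence of calls says little about the members. The livers of a genotype differed far more than the genotypes: Meis1 was at 13.4 and 126 CPM in the wild type and at 18.4 and 93.7 CPM in the knockout. Fitted log2 differences of knockout over wild type were 0.02 ± 0.46 for Kit, 0.19 ± 0.66 for Flt3, 0.63 ± 0.57 for Procr, -0.39 ± 0.42 for Cd34, -0.48 ± 0.80 for Meis1, -0.75 ± 0.85 for Mecom, -1.05 ± 1.07 for Hoxa9, -0.16 ± 0.66 for Hlf and -0.68 ± 0.54 for Gata2.

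Litters paired the fetal livers, and with the litter as a replicate block 157 genes passed, C1qa among them (-9.64 ± 0.53, adjusted p = 2.64e-69), but none of the 9 members. Under the block Mecom was at -0.33 (adjusted p = 0.919), Meis1 at -0.22 (adjusted p = 0.919) and Hoxa9 at -0.76 (adjusted p = 0.919). With the block and liver spots alone 26 genes passed, again no member, and Mecom turned to 0.30 (adjusted p = 0.954) and Hoxa9 to 0.24 (adjusted p = 0.959).

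In spleen, 2 members passed between the genotypes, Flt3 higher and Hoxa9 lower in the knockout, where 20.6% of 18895 genes passed, 13.8% higher and 6.79% lower. Flt3 was at 11.4 and 12.3 CPM in wild-type spleens against 15.7 and 15.1 CPM in knockout spleens, with no overlap, and the purchased wild-type spleen was above all of them at 21.6 CPM. The fit gave 1.56-fold (0.64 ± 0.22, adjusted p = 0.0450). Hoxa9 was at 9.08 and 8.76 CPM in the wild type and 4.34 and 3.56 CPM in the knockout, 1.91-fold lower (-0.93 ± 0.29, adjusted p = 0.0296), and the purchased wild-type spleen was below all of them at 0.46 CPM. For both genes the purchased animal thus stood outside the range of the cross, on the knockout side. Its section was counted over 32589 features, against 19465 in the cross, and its label gives the age only as adult. A difference between animals and one between these sets of sections cannot be told apart here.

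These calls were near the threshold. Flt3 passed in 6 of 12 alternatives and Hoxa9 in 8 of 12, and DESeq2 gave adjusted p = 0.0724 for Flt3 and 0.0804 for Hoxa9. Without wild-type spleen 1, wild-type spleen 2 or knockout spleen 2 the adjusted p of Flt3 was 0.224, 0.0764 and 0.256, and that of Hoxa9 0.173, 0.0779 and 0.168. With library totals Flt3 was at 0.38 (adjusted p = 0.256) and Hoxa9 at -1.19 (adjusted p = 0.0168), and relative to the median gene Flt3 was at 0.73 with TMM and 0.72 with totals. Over all genes 67.0% of calls were higher in the knockout with TMM, 26.5% with totals and 21.4% with upper-quartile factors.

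The other members did not pass in spleen, though Kit did in 1 of its 12 alternatives, over which its log2 difference ran from 0.03 to 0.63. Kit was at 0.33 (adjusted p = 0.192), Meis1 at 0.26 (0.355), Cd34 at 0.08 (0.767), Procr at 0.08 (0.758), Mecom at -0.09 (0.828), Hlf at -0.46 (0.187) and Gata2 at -0.32 (0.286). Hlf and Gata2 did not overlap between the genotypes in CPM, with wild-type spleens at 11.1 and 11.4 CPM for Hlf and 15.0 and 15.4 CPM for Gata2, against 8.1 and 5.8 CPM and 10.4 and 9.9 CPM in the knockout, but neither did 70.5% of 18723 genes with a mean of at least 1 CPM. Other cell markers moved with genotype in the same spleens. The erythroid progenitor list summed to 4129 and 2314 CPM in wild-type spleens against 1087 and 1220 CPM in knockout spleens, the neutrophil list to 695 and 628 against 84.8 and 140 CPM, the megakaryocyte list to 415 and 444 against 210 and 244 CPM, and the lymphoid list to 6458 and 6505 against 8050 and 7210 CPM. The mast cell list, of cells that carry Kit and Gata2, summed to 50.5 and 45.0 CPM in spleens of the wild type against 32.0 and 25.6 CPM in those of the knockout. All 20, 10, 10 and 14 genes of the first 4 lists and the 9 measured genes of the mast cell list were above 0 in each of the 4 spleens, and their part in the Flt3, Hoxa9 and Gata2 values was not tested.

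A test of the difference between the tissues in the genotype effect called 0% of 19180 genes by edgeR and no member. Before adjustment 2018 genes had p below 0.05, and DESeq2 called 8. The difference was 0.43 ± 0.56 for Flt3 (adjusted p = 0.737) and 0.16 ± 1.31 for Hoxa9 (adjusted p = 0.968). With the replicate block 1409 genes passed and again no member.

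Spleen spots were ranked by the ratio of 14 lymphoid genes, such as Cd3e, to 12 red pulp genes. The red pulp list included Spic and Slc40a1, the C1q genes C1qb and C1qc, and the erythroid genes Epb42, Slc4a1 and Alas2. The upper tertile, white pulp-rich, was compared with the lower, red pulp-rich. Of 9 members, 4 were lower in white pulp-rich spots and 0 higher, where 3688 of 18453 genes (20%) passed, 10.8% lower. With library totals 69.8% of calls over all genes were higher in white pulp, with TMM 45.7%. Meis1 was at 15.9 against 20.6 CPM and 9.3 against 19.97 CPM in wild-type spleens 1 and 2, 14.4 against 21.6 CPM and 12.9 against 20.7 CPM in knockout spleens 1 and 2, and 21.3 against 40.7 CPM in the purchased spleen. It was lower in white pulp in each of these 5 sections (-0.77 ± 0.14 over the 4 of the cross, adjusted p = 0.00195) and passed in 9 of 9 alternatives.

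Kit (-0.63 ± 0.16, adjusted p = 0.0135), Cd34 (-0.56 ± 0.14, adjusted p = 0.0128) and Gata2 (-0.75 ± 0.21, adjusted p = 0.0249) passed in 6, 5 and 3 of 9 alternatives. Under library totals Cd34 and Gata2 had adjusted p = 0.0788 and 0.0530. Without knockout spleen 1 the adjusted p was 0.0749 for Kit, 0.0742 for Cd34 and 0.0747 for Gata2, without knockout spleen 2 it was 0.0967 for Kit and 0.144 for Gata2, and without wild-type spleen 2 it was 0.0614 for Cd34 and 0.100 for Gata2. Flt3 was at -0.39 (adjusted p = 0.123), and Mecom, Hlf, Procr and Hoxa9 lay between -0.23 and 0.07 and did not pass.

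The layout of Kit was not the same in all spleens. It was at 36.2 CPM in white pulp-rich and 35.1 CPM in red pulp-rich spots of wild-type spleen 1 and at 59.5 and 58.5 CPM in wild-type spleen 2, whereas knockout spleens held 41.1 against 72.4 CPM and 34.7 against 68.8 CPM. The wild-type spleens of the cross thus had nearly equal Kit in both zones, and the knockout spleens had more in red pulp. The purchased wild-type spleen, at 34.6 against 84.9 CPM, had the layout of the knockout spleens. A test of the genotype difference in the ratio, added after the values had been seen, gave -0.85 ± 0.17 for Kit (adjusted p = 0.00447), where 3.64% of 18453 genes passed, 1.27% lower. Of these calls 65.1% were higher with TMM and 75.4% with upper-quartile factors. Gata2 (-1.02, adjusted p = 0.0615) and Procr (-0.73, adjusted p = 0.0942) did not pass, but Gata2 passed without wild-type spleen 2 (-1.19, adjusted p = 0.00240). The Kit call was lost with DESeq2 (adjusted p = 0.401) and without knockout spleen 2 (adjusted p = 0.166), and wild-type spleen 2 had 83 and 82 Kit UMIs in the 2 zones. Hemoglobin genes summed to 183780 and 55621 CPM in red pulp-rich spots of the wild-type spleens. In those of the knockout they summed to 27362 and 68224 CPM, against 26927 CPM in the purchased spleen. Without hemoglobin genes the Kit difference was -0.90 (adjusted p = 0.00370). Over whole sections the red pulp list summed to 4325 and 2327 CPM in wild-type spleens against 1815 and 2151 CPM in knockout spleens. The red pulp-rich tertile may therefore not hold the same mix of cells in both genotypes. The part of that mix in the Kit difference was not tested.

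**Figure D5:**
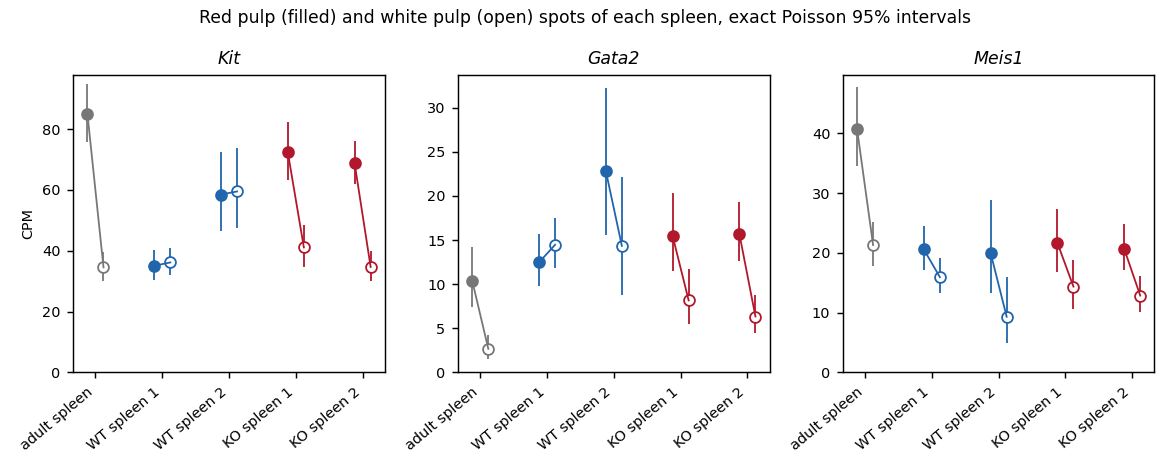
CPM of Kit, Gata2 and Meis1 in red pulp-rich (filled) and white pulp-rich (open) spots of 5 spleens, joined by 1 line a section (grey purchased, blue wild type, red C1qa knockout), with exact Poisson 95% intervals that cover counting error only. Meis1 is lower in white pulp in all 5, and Kit is level in the 2 wild-type spleens of the cross and lower in white pulp in the 2 knockout spleens and the purchased spleen.

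A wider list of 28 regulators of stem and progenitor cells, of which 26 or 27 could be tested, was set beside the members. In liver against other spots 11 of 27 were higher in liver (16.8% of all genes), among them the hematopoietic factors Lyl1 (3.54, adjusted p = 0.000178), Lmo2 (3.45, adjusted p = 0.000146) and Myb (3.37, adjusted p = 0.000179), and 6 were lower (14.0% of all genes), among them the homeobox genes Hoxa5 (-2.61) and Hoxb4 (-1.76). Meis1, whose product pairs with HOX proteins, had the sign of this latter group. In progenitor-rich liver spots, where 2.56% of all genes were higher and 4.94% lower, 3 of 27 were higher (Lyl1 0.62, Lmo2 0.52, Tal1 0.61) and 3 lower, among them Hoxa5 (-1.57) and Hoxa7 (-1.34).

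Between spleen and fetal liver the counts of regulators were near those of all genes, of which 21.2% were higher and 25.6% lower. Of 27 regulators 5 were higher in spleen, led by the lymphocyte surface genes Cd27 (4.82), Cd48 (3.14) and Slamf1 (2.31), and 7 lower, led by the fetal genes Lin28b (-3.101) and Hmga2 (-9.23) and by the erythroid and stem cell factor Tal1 (-4.12). With the replicate block 9 were higher and 11 lower. Between the spleen genotypes 6 of 26 were higher in the knockout (13.8% of all genes), led by Cd48 (0.88), Ly6a (2.58) and Slamf1 (0.69), and Tal1 was lower (-1.27, adjusted p = 0.00186). In white pulp, where 9.14% of all genes were higher and 10.8% lower, 3 of 26 were higher (Cd27 1.12, Slamf1 0.88, Lyl1 0.34) and 7 lower, led by Fgd5 (-1.28), Tal1 (-2.02) and Cd93 (-0.81). The genotype difference in the white to red pulp ratio called 3 of 26, all lower (1.27% of all genes): Cd48 (-0.57), Slamf1 (-0.70) and Fli1 (-0.59). No regulator passed between fetal liver genotypes, in endothelial-rich spots or in the difference between tissues, but in the last, with the replicate block, Tal1 (-1.71, adjusted p = 0.00590) and Lin28b (-1.25, adjusted p = 0.0497) did.

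Signals of the niche bind some of the receptors above. Flt3l, which encodes the ligand of Flt3, was higher in spleen than in fetal liver (2.44 ± 0.26, adjusted p = 8.38e-05), higher in knockout than in wild-type spleens (0.95 ± 0.18, adjusted p = 0.00139) and higher in liver than in other spots (2.46 ± 0.50, adjusted p = 0.00684). Flt3 was called higher in the same 3 comparisons, but less firmly in the last 2. It passed in 18 of 18, 6 of 12 and 5 of 8 alternative settings, in the same order. Kitl, which encodes the ligand of Kit, was lower in white than in red pulp (-1.11 ± 0.12, adjusted p = 2.94e-05), beside Cxcl12 (-1.93) and Csf1 (-0.85), with 4 of 7 niche genes lower and 0 higher there (10.8% and 9.14% of all genes). Kit was called lower there too, though its CPM was not lower in the 2 wild-type spleens of the cross. Of the 8 niche genes, 4 were higher in spleen than in fetal liver (21.2% of all genes) and 6 with the replicate block, with Csf1 (1.66) and Il7 (1.42) beside Flt3l, and Thpo, the gene of thrombopoietin, was lower (-1.25, adjusted p = 0.0487). In liver spots Thpo was higher (1.69) and the Notch ligand gene Jag1 lower (-2.11), and Jag1 was lower in progenitor-rich liver spots (-0.88). Csf1 was lower in knockout spleens (-0.61, adjusted p = 0.0196).

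The genes most like each member across the 13 sections, by Pearson's r of log2(CPM + 1) among genes with a mean of at least 10 CPM, are given as a description, since the sections share tissues, feature tables and depth. For Flt3 they were Il4i1 (0.993), Klri1 (0.990) and C87436 (0.988), and for Procr B3gntl1 (0.983), Efhd1 (0.978) and Adam33 (0.975). For Meis1 they were Tbl1x (0.983), Meis2 (0.959) and Nup188 (0.957), for Mecom Zfp503 (0.972), Tax1bp3 (0.972) and Spry2 (0.968), and for Cd34 the collagen gene Col5a2 (0.967), Mdfi (0.962) and Pycr1 (0.951). For Hlf they included 2810459M11Rik (0.947) and Foxa3 (0.923), a transcription factor of hepatocytes. For Hoxa9 the nearest were Slc6a8 (0.947), Foxc1 (0.940) and Tmem158 (0.911), for Gata2 9130401M01Rik (0.948), Men1 (0.941) and Tbcb (0.938), and for Kit Exosc8 (0.894), Fam122b (0.883) and Hibch (0.840), the weakest of the 9 sets. Between members the highest values were Procr with Flt3 (0.904), Hoxa9 with Gata2 (0.785), Mecom with Hoxa9 (0.767), Mecom with Gata2 (0.743) and Mecom with Meis1 (0.723).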

How the data were processed

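RNA was measured on sections of formalin-fixed, paraffin-embedded tissue with Visium probe arrays. The deposited files hold raw UMI counts per probe feature and spot, which the authors made with Space Ranger (versions 2.1.1, 3.1.2 and 4.0.1 per the file headers, and Cell Ranger 4 in the headers of 4 purchased sections) against mm10, and filtered further only in their own analysis. From these counts, spots under tissue with at least 1000 genes were summed per section or per region, and the section was the unit of every test. CPM was computed over all features, with exact Poisson intervals at the 95% level. Intervals and limits cover counting error only. Levels are not compared between genes, since probes differ in capture.

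Comparisons used the quasi-likelihood F test of edgeR 4.0.16 (limma 3.58.1, R 4.3.3) with filterByExpr and TMM scaling on the whole table, with Benjamini-Hochberg adjustment over all genes tested and a threshold of 0.05; SE is the log2 fold change divided by the root of F. DESeq2 1.42.0, other scaling factors, no filter on low counts, other spot filters, a replicate block (between tissues a term for the litter of the fetal livers, centred so that spleens are compared with the mean of both litters) and leaving out each section in turn were the alternatives. Region contrasts had the section as a block, and no region list holds a member. The 9 members are named in every comparison; of the regulators and niche signals, at most 3 genes a direction with the smallest adjusted p are named, and for likeness the 3 highest r; some genes that met these rules are not reported here. Members and lists were chosen with earlier results of these data known, and the erythroid progenitor list comes from the study's own fetal liver data. Replicates are separate animals for the fetal livers; for the spleens the labels say only that they are separate samples, so p-values there measure the spread between these samples.

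No 2 sections of a group were alike within sampling noise (chi-square per degree of freedom 22.1 to 672). Fetal liver numbers name litters in the study, and same-numbered livers deviated together (r = 0.698); spleen numbers are not said to pair, and did not (r = 0.0625). The scripts were tested on simulated counts. Promoter windows are those of RefSeq. Python 3.11.15, numpy 2.4.6, pandas 2.3.3, scipy 1.17.1 and matplotlib 3.10.9 were used.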

Additional observations from a re-analysis of the deposited data

Results flagged for a closer look

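The white to red pulp ratio of Kit in spleen was lower in the knockout (-0.85 on the log2 scale, edgeR, adjusted p = 0.00447). The zones were set in part by a red pulp list that was lower in the knockout spleens, at 1815 and 2151 against 4325 and 2327 CPM. The test of Kit was added after the values had been seen and made on the same sections. The call was lost with DESeq2 (adjusted p = 0.401) and without knockout spleen 2 (adjusted p = 0.166), and the purchased wild-type spleen, at 34.6 CPM in white and 84.9 CPM in red pulp-rich spots, had a ratio like that of the knockout spleens.

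The log2 ratio of Kit CPM in liver over other spots was above 0 in both wild-type fetal livers (0.21 in number 2 and 0.34 in number 4) and below 0 in both knockout livers (-0.94 in number 2 and -0.30 in number 4), a difference that was not tested. In knockout liver 4 the median over single spots was higher in liver (77.3 CPM) than in other spots (58.9 CPM). The other spots there were shallower, 36.5% of them had no Kit UMI against 13.1% in liver, and their 90th percentile was higher (202 against 151 CPM). In endothelial-rich over endothelial-poor liver spots Kit was at -0.0063 and -0.022 in wild-type livers 2 and 4 and at 0.21 and 0.082 in knockout livers 2 and 4. Mecom was at 0.50 and 0.083 in the wild type and -1.16 and -0.45 in the knockout, in the same order. Mecom was scarce, at 2.3 CPM in wild-type liver 2 and 4.6 CPM in knockout liver 2, so its ratios there rest on few UMIs. These differences of Kit and Mecom were not tested either.

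Spots outside tissue, which no comparison used, held UMIs of the 9 genes above the limit that a count of 0 allows in all 6 purchased sections. Summed over the 9 genes they stood at 127.8 CPM off tissue in the E13.5 liver (127.3 CPM in passing spots), 120.9 in the E14.5 liver (103.3), 204.9 in the P8 leg bone (184.9), 110.6 in the 89-week marrow (113.2) and 164.3 in the adult spleen (154.0). The EDTA-treated marrow stood at 135.7 CPM off tissue and 242.2 CPM in passing spots, from only 5 and 9 UMIs. Off tissue there, 3 counts equal 81.4 CPM, so no difference is drawn from these values.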

How the results depend on the processing

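Of 922 values of single members under alternatives, 750 kept their direction and side of the threshold, 62 were no longer past it, 6 newly passed it, 104 that were never called changed sign and none that was called reversed. In fetal liver the genotype called 0 genes, against 15 with DESeq2, 15 with library totals, 1 with liver spots only, 157 with the replicate block, 26 with the replicate block and liver spots only, and 0 to 109 without 1 section. In spleen it called 3886 genes (240 to 4972 without 1 section) and 2 members, against 0 with DESeq2, 1 with upper-quartile factors, 1 with library totals and 0 to 2 without 1 section; 240 genes and 0 members were left without knockout spleen 2. The replicate block changed no call of a member, except that with liver spots only Mecom was no longer called between tissues, which was so with liver spots only and no block too. Between tissues 8931 genes passed (5896 with library totals, 5744 to 12412 without 1 section) and 7 members (3 with library totals, 3 in wild-type sections alone, 4 to 6 without 1 section). The test of unequal genotype effects in the 2 tissues called 0 genes, against 8 with DESeq2, 1409 with the replicate block and 0 to 2 without 1 section. Without 1 section, liver against other spots called 3631 to 6305 genes and 3 to 7 members, white against red pulp 2200 to 3684 genes and 1 to 4 members (1 with DESeq2, 2 with library totals), progenitor-rich spots 0 to 1910 genes and 0 to 1 member, and endothelial-rich spots 0 to 57 genes (3 with DESeq2, 1 with library totals, 9 with the median in place of tertiles as the divide). The genotype difference in the white to red pulp ratio called 671 genes (125 with DESeq2, 189 to 2222 without 1 section) and 1 member (0 with DESeq2, 2 with library totals, 2 without hemoglobin genes, 0 to 2 without 1 section). Of 378 CPM levels recomputed with other spot filters or without hemoglobin genes, 330 counted as unchanged. In the cross this means a shift below the SD between the 2 sections of a group, and in purchased sections a value within the section's interval. That SD was wide for some genes, 79.8 CPM for Meis1 in wild-type fetal livers. With 2 sections a genotype, small counts of Flt3, Hoxa9 and Mecom in fetal liver limit what could be seen.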
